A study of Mus musculus with 8 samples.

Results

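The genes described here are 10 surface and secreted genes by which preadipocytes and fibroblasts of adipose tissue are commonly recognized: Pdgfra, Pdgfrb, Pi16, Dpp4, Cd34, Fap, Sfrp1, Sfrp2, Ly6a and Thy1. They were chosen by name, with earlier results of these data known, and all 10 were found among the 54146 genes counted, each through its Ensembl identifier. Bulk RNA-Seq had been performed on macrophages sorted from the epididymal white adipose tissue (eWAT) of 4 C57Bl6 mice, with 1 FCGR4+ and 1 FCGR4- library from each mouse. Both populations came from the same animals, which had been fed a high fat diet ad libitum for 24 weeks and then underwent caloric restriction (stCR), with a 30% food reduction over 2 weeks, so what they share includes the diet, the restriction and the genotype. The labels give no age. The sort kept cells positive for CD45 (the common leukocyte antigen) and CD11b and removed those positive for CD3, B220, Ly6G or SiglecF, and it was then split on FCGR4, an activating receptor for IgG. No stromal surface protein was part of the gate.

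Preadipocytes are the stromal cells from which new adipocytes form. In the mouse they are usually isolated as cells that lack CD45 and carry PDGFRα, and within them a Pi16 and Dpp4 population of early progenitors is distinguished from more committed cells. Platelet-derived growth factors signal through the receptor tyrosine kinases PDGFRα and PDGFRβ, while secreted frizzled-related proteins bind Wnt ligands outside the cell. Several of the 10 genes are not restricted to stroma: Ly6a encodes Sca-1, which is also an interferon-inducible protein of leukocytes and endothelium, Thy1 and Dpp4 are found on T cells, Cd34 on endothelium, hematopoietic progenitors and mast cells, and Pdgfrb on pericytes.

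All of these genes but Ly6a and Thy1 were called lower in FCGR4+ than in FCGR4- macrophages, by between 3.77-fold (Dpp4) and 6.54-fold (Fap). Of the 10 genes, 10 passed the filter on low counts (at least 10 counts in at least 4 libraries), 8 passed the threshold with lower expression in FCGR4+ macrophages and 0 with higher expression, where 1.19% of the 17095 tested genes were called lower and 0.0819% higher. The test was the paired quasi-likelihood test of edgeR, in which each mouse is its own control, and a gene was called at an adjusted P value under 0.1 (Benjamini-Hochberg over all tested genes). Of the 10, 0 were higher at an unadjusted P under 0.05 or with DESeq2, where 3.1% and 1.12% of all tested genes were. The corresponding shares of lower genes, against which the counts for other gene lists at these thresholds are to be read, were 6.67% and 4.87%. The level was lower in FCGR4+ cells in 4 of 4 mice for 9 of the 10 genes, as it was for 10.4% of all tested genes, and for 6 of the 10 the highest FCGR4+ library lay below the lowest FCGR4- library, as for 3.02% of all. The median log2 fold change was -2.09 over the 10 genes and -0.0025 over all tested genes. These calls lay close to the threshold, with adjusted P values from 0.0366 to 0.0949 by edgeR, and they depended on single animals. Without mouse 1 or without mouse 4, 0 of the 10 genes passed, without mouse 3 Pdgfrb and Pi16 did (2 genes), and without mouse 2 Pdgfra, Pdgfrb, Pi16 and Sfrp1 did (4 genes). With mouse left out of the model, Pdgfrb and Dpp4 passed (2 genes). The direction of the 8 called genes was the same in every one of these fits.

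**Figure D1:**
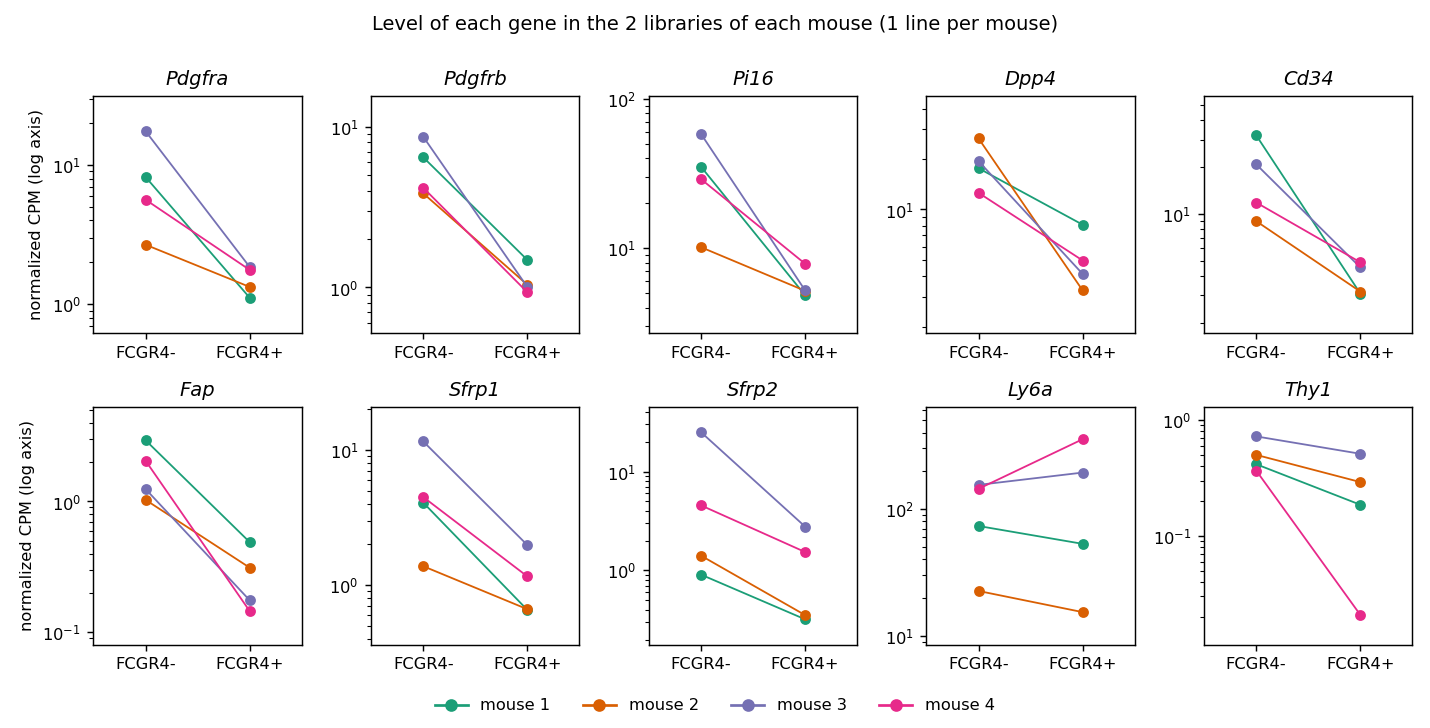
Level of each of the 10 genes in the FCGR4- and the FCGR4+ library of each mouse, in normalized CPM on a log axis, with 1 line per mouse. The lines of 9 genes fall from left to right in all 4 mice, and those of Ly6a fall in mice 1 and 2 and climb in mice 3 and 4.

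Since 8 genes were lower together, the 250 bases before the start site were examined for those with a RefSeq promoter entry (build GRCm38.p6, 5 of the 10 genes: Pdgfra, Pi16, Dpp4, Cd34 and Sfrp2). The promoters of Pdgfra (plus strand, chr5:75152001-75152250), Pi16 (plus strand, chr17:29318632-29318881) and Dpp4 (minus strand, chr2:62412232-62412481) are shown 5′ to 3′, since these genes define the preadipocyte pool and its early progenitors. Capitals mark the motifs that were found, and lower case all other bases.
Pdgfra: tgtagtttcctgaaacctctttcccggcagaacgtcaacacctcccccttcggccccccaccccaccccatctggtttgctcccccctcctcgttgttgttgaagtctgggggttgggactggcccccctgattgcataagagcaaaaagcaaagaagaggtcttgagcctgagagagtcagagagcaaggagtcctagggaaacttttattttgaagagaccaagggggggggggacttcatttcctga
Pi16: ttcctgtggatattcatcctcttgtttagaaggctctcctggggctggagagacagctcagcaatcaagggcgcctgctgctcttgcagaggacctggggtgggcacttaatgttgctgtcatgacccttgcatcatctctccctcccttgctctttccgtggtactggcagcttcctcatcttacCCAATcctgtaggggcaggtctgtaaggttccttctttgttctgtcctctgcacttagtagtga
Dpp4: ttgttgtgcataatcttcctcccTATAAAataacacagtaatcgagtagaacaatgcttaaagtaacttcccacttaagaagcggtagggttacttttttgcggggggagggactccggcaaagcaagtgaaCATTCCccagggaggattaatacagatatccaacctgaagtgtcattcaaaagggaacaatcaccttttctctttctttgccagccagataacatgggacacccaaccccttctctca
Searched on both strands were the core promoter motif TATAAA, the motif CCAAT of NF-Y, the motif GGGCGG of Sp factors, the motif GGAATG of TEAD factors, the motif TGANTCA of AP-1 and the motif TTCNNNGAA of STAT factors. None of these overlapped another where they were found. Pi16 carried CCAAT at position -64 counted from the start site, a motif found in 33.9% of the 32851 promoter windows of this length. Dpp4 carried TATAAA at -227, as 12.4% of windows did somewhere, and GGAATG at -118 on the opposite strand, as 12.6% did. The windows of Pdgfra, Cd34 and Sfrp2 held none of the 6 motifs. No motif was thus common to the 5 promoters, and their GC content ran from 43.6% in Dpp4 to 63.6% in Sfrp2, around a median of 52.4% for all windows.

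The libraries held between 35992794 and 66856746 counts, and 3 counts, the floor used here, correspond to between 0.0440 and 0.0883 normalized CPM (CPM, the count relative to the TMM-scaled size of the library). Fcgr4 itself had the higher level in the FCGR4+ library of 4 of 4 mice (199.6 ± 42.4 against 66.1 ± 18.3 normalized CPM, SD, n = 4 mice, adjusted P = 0.0162 by edgeR). More genes had at least 1 count in the FCGR4- library than in the FCGR4+ library of each mouse, from 24901 to 26545 against 21159 to 24264. Macrophage markers were abundant in every library, with a summed level of 31536 to 56072 CPM in FCGR4+ and 25127 to 49458 CPM in FCGR4- libraries. Lyz2, lysozyme, made up 60.4% of this sum in FCGR4+ and 64.2% in FCGR4- libraries. Without Lyz2 it was 13725 to 16262 and 10740 to 13759 CPM.

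To compare genes with each other, levels were divided by gene length (FPKM). In FCGR4- macrophages Ly6a stood far above the rest at 82.0 ± 51.7 FPKM (SD, n = 4 mice), followed by Pi16 at 8.33 ± 4.99. Sfrp2 (3.71 ± 5.35), Dpp4 (3.01 ± 0.915) and Cd34 (2.52 ± 1.42) came next, then Sfrp1 (1.23 ± 0.992), Pdgfrb (1.06 ± 0.411) and Pdgfra (0.850 ± 0.641 FPKM). Fap at 0.321 ± 0.153 and Thy1 at 0.167 ± 0.0526 FPKM were the lowest. From Pi16 down to Fap, neighbors in this order differed by less than the larger of their SDs, Fap and Thy1 differed by about the SD of Fap, and Ly6a lay above Pi16 by more than its SD. In FCGR4+ macrophages the order began with Ly6a (128.1 ± 128.1) and Pi16 (1.45 ± 0.352 FPKM) and ended with Thy1 (0.0842 ± 0.0686) and Fap (0.0495 ± 0.0277 FPKM), so that apart from Ly6a and Pi16 each gene had a mean below 1 FPKM. In bulk libraries, fewer cells of a type and less RNA per cell cannot be told apart.

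The PDGF receptors were the first group. Pdgfra (ENSMUSG00000029231.15, plus strand of chromosome 5 in mm10, 75152292 to 75198215), the receptor that marks preadipocytes, had 1.11, 1.33, 1.85 and 1.76 normalized CPM in the FCGR4+ libraries of mice 1 to 4. The FCGR4- libraries of the same mice had 8.22, 2.68, 17.5 and 5.64 CPM. The FCGR4+ values were thus nearly level, while those of FCGR4- cells spread widely with mouse 3 highest and mouse 2 lowest, and the populations did not overlap. Pdgfra was 4.67-fold lower in FCGR4+ cells, a log2 fold change of -2.22 (95% interval -3.21 to -1.24, adjusted P = 0.0900 by edgeR). Pdgfrb (ENSMUSG00000024620.11, plus strand of chromosome 18, 61045150 to 61085061), the receptor typical of pericytes and perivascular progenitors, had 1.48, 1.04, 1.01 and 0.934 CPM in FCGR4+ and 6.46, 3.86, 8.69 and 4.18 CPM in FCGR4- libraries. Again the populations did not overlap and mouse 3 was highest among FCGR4- libraries. The log2 fold change of Pdgfrb was -2.32 (95% interval -3.05 to -1.59), and with an adjusted P of 0.0366 by edgeR it was the 1 gene of the 10 that also passed a threshold of 0.05. Markers of pericytes and smooth muscle had a summed level of 4.85 to 9.68 CPM in FCGR4+ and 8.18 to 17.0 CPM in FCGR4- libraries, lower in FCGR4+ cells in 4 of 4 mice. Of the 9 tested among 11 such markers, 0 were called by edgeR and 2 were lower at an unadjusted P under 0.05 (2 with DESeq2). The median log2 fold change of these 9 was -0.08, and without the 4 most abundant (Acta2, Cspg4, Des and Rgs5) the sum was lower in 2 of 4 mice. Acta2, smooth muscle actin, had 1.74 ± 0.909 and 4.98 ± 3.94 CPM (SD, n = 4, adjusted P = 0.239 by edgeR) and Cspg4, the NG2 proteoglycan, 1.88 ± 2.34 and 2.54 ± 3.02 CPM in FCGR4+ and FCGR4- libraries.

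Other genes of the PDGF pathway were not called. Of 5 genes for PDGF ligands and the coreceptor neuropilin 1, 5 were tested and 0 were called by edgeR, by DESeq2 or at an unadjusted P under 0.05, with a median log2 fold change of 0.07. Nrp1, the coreceptor, had 221.6 ± 52.9 and 178.1 ± 5.70 CPM and Pdgfc, a PDGFRα ligand, 16.2 ± 4.67 and 12.5 ± 2.33 CPM (SD, n = 4) in FCGR4+ and FCGR4- macrophages. Of 12 genes for signaling proteins downstream of the receptors, 12 were tested and 0 were called (0 with DESeq2, 1 higher at an unadjusted P under 0.05), with a median log2 fold change of 0.02. Among these Rasa1, a Ras GTPase-activating protein, had 199.9 ± 133.0 and 155.7 ± 125.6 CPM and Stat3, a transcription factor, 127.0 ± 16.6 and 138.4 ± 22.5 CPM. These signaling genes are used by nearly all cells, macrophages included.

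Pi16 and Dpp4, the genes of the early progenitor population, were both lower in FCGR4+ macrophages. Pi16 (ENSMUSG00000024011.16, plus strand of chromosome 17, 29318877 to 29329413), which encodes a peptidase inhibitor of the CAP family, had 4.84, 5.18, 5.22 and 7.87 CPM in FCGR4+ and 35.2, 10.2, 58.4 and 29.0 CPM in FCGR4- libraries. As for Pdgfra, mouse 3 was highest and mouse 2 lowest among FCGR4- libraries, and no values overlapped. Pi16 was 4.97-fold lower (log2 fold change -2.31, 95% interval -3.28 to -1.35, adjusted P = 0.0722 by edgeR). Dpp4 (ENSMUSG00000035000.8, minus strand of chromosome 2, 62330073 to 62412231), the serine peptidase CD26, which trims incretins and chemokines, had 8.11, 3.29, 4.12 and 4.96 CPM in FCGR4+ and 17.6, 26.5, 19.4 and 12.6 CPM in FCGR4- libraries. The populations did not overlap here either, but the order of the mice was another, since mouse 2 had the highest FCGR4- value of Dpp4 and the lowest of Pdgfra, Pi16 and Cd34. Its log2 fold change was -1.92 (95% interval -2.71 to -1.13, adjusted P = 0.0706 by edgeR), and -1.57 without mouse 2.

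T cell markers were lower in FCGR4+ libraries too. Their summed level was 4.59 to 27.8 CPM in FCGR4+ and 31.3 to 99.9 CPM in FCGR4- libraries, and in the latter it was 63.8, 99.9, 66.5 and 31.3 CPM in mice 1 to 4, the same order as Dpp4. Among FCGR4+ libraries the order was not that of Dpp4, with 11.6, 27.8, 22.8 and 4.59 CPM for the T cell markers, so that mouse 2 was highest for these and lowest for Dpp4. Of 15 T cell markers, 14 were tested and 6 were called lower by edgeR, among them Trbc2, a T cell receptor chain (0.976 ± 0.396 CPM in FCGR4+ and 6.14 ± 2.92 CPM in FCGR4- libraries, SD, n = 4, log2 fold change -2.58, adjusted P = 0.0242), Cd3g (-2.25, adjusted P = 0.0681), Lck, a T cell kinase (-2.08, adjusted P = 0.0590), and Ccr7, a chemokine receptor that migratory dendritic cells also carry (-3.54, adjusted P = 0.0195). With DESeq2 12 were lower, and 13 at an unadjusted P under 0.05, with a median log2 fold change of -2.17 and 14 of 14 negative. No T cell marker was at 0 in every library. CD3 had been a negative gate. Among the dendritic cell markers, Flt3 and Xcr1 also had the order of Dpp4 in FCGR4- libraries, and the others listed did not. In the FCGR4- libraries of mice 1 to 4, Flt3 had 9.19, 13.5, 9.52 and 7.80 CPM and Xcr1 3.36, 6.50, 4.77 and 2.37 CPM. The part of T cells or dendritic cells in the level of Dpp4 was not tested. In the gene family of Dpp4, Fap, another of the 10 genes, was called lower. Of 7 further genes for dipeptidyl and related prolyl peptidases, not all of this family, 5 were tested. Of these 0 were called by edgeR, by DESeq2 or at an unadjusted P under 0.05, with a median log2 fold change of -0.11. Prcp, a lysosomal carboxypeptidase, had 78.8 ± 6.57 and 70.9 ± 10.7 CPM and Dpp7, a vesicular dipeptidase, 62.6 ± 23.4 and 56.6 ± 16.6 CPM (SD, n = 4) in FCGR4+ and FCGR4- cells. In the CAP family of Pi16, 3 of 8 genes were tested and 0 called (2 lower at an unadjusted P under 0.05 and 2 with DESeq2). Glipr2 had 21.9 ± 3.13 and 48.1 ± 28.5 CPM (adjusted P = 0.210 by edgeR) and Glipr1 76.2 ± 15.6 and 64.4 ± 22.9 CPM (adjusted P = 0.577).

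Cd34 and Fap, further surface proteins of adipose stroma, were lower in FCGR4+ macrophages. Cd34 (ENSMUSG00000016494.9, plus strand of chromosome 1, 194938819 to 194961279), a sialomucin, had 3.07, 3.16, 4.52 and 4.88 CPM in FCGR4+ and 32.0, 8.98, 20.8 and 11.8 CPM in FCGR4- libraries. Mouse 1 had both the lowest FCGR4+ and the highest FCGR4- value, without overlap between the populations. Its log2 fold change was -2.08 (95% interval -2.94 to -1.23, adjusted P = 0.0699 by edgeR), and -1.66 without mouse 1. The other genes of its family, Podxl and Podxl2 (podocalyxin and endoglycan), had low levels, with 0.134 ± 0.0851 and 0.531 ± 0.712 CPM for Podxl and 0.200 ± 0.166 and 0.229 ± 0.249 CPM for Podxl2 (SD, n = 4), and 0 of these 2 were called (0 with DESeq2, 0 at an unadjusted P under 0.05). Endothelial markers, which include none of the 10 genes, overlapped between the populations at 45.4 to 78.9 CPM in FCGR4+ and 53.3 to 66.3 CPM in FCGR4- libraries, lower in FCGR4+ cells in 2 of 4 mice. Of the 13 tested among 14, 0 were called by edgeR, 3 were lower at an unadjusted P under 0.05 and 2 with DESeq2. The median log2 fold change of these 13 was -0.68, and 10 had a negative one. Their sum was mostly Eng, which took 66.4% of it in FCGR4+ and 53.8% in FCGR4- libraries, and without Eng it was 14.8 to 28.7 CPM in FCGR4+ and 21.2 to 32.5 CPM in FCGR4- libraries, lower in 3 of 4 mice. Eng, endoglin, had 39.0 ± 13.9 and 30.8 ± 8.59 CPM and Vwf, von Willebrand factor, 5.33 ± 1.99 and 7.79 ± 7.66 CPM (SD, n = 4). Mast cell and basophil markers had a summed level of 14.5 to 30.5 CPM in FCGR4+ and 395.4 to 2176 CPM in FCGR4- libraries, where mouse 1 was highest, as it was for Cd34, and mouse 3 lowest. Of 12 such markers, 11 were tested and 11 called lower, among them the mast cell protease Mcpt4 (-5.79 on the log2 scale, adjusted P = 0.00323 by edgeR) and Fcer1a, a chain of the IgE receptor (-6.95, adjusted P = 0.00600), and Mcpt8 was at 0 in every FCGR4+ library and at 0 to 1.09 CPM in FCGR4- libraries. The part of these cells in the level of Cd34 was not tested.

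Fap (ENSMUSG00000000392.17, minus strand of chromosome 2, 62500943 to 62574075), fibroblast activation protein, a membrane peptidase of the same gene family as Dpp4 and its neighbor on the chromosome, was counted 29, 15, 11 and 7 times in FCGR4+ and 191, 35, 69 and 140 times in FCGR4- libraries. This corresponds to 0.489, 0.312, 0.176 and 0.145 CPM against 2.94, 1.03, 1.25 and 2.05 CPM. The populations did not overlap, and each FCGR4+ value was above the floor of 3 counts. Fap had the largest fold change of the 10 genes, 6.54-fold, and the interval of its log2 fold change of -2.71 (95% interval -3.93 to -1.49, adjusted P = 0.0949 by edgeR) covered the fold changes of the 7 other called genes.

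**Figure D2:**
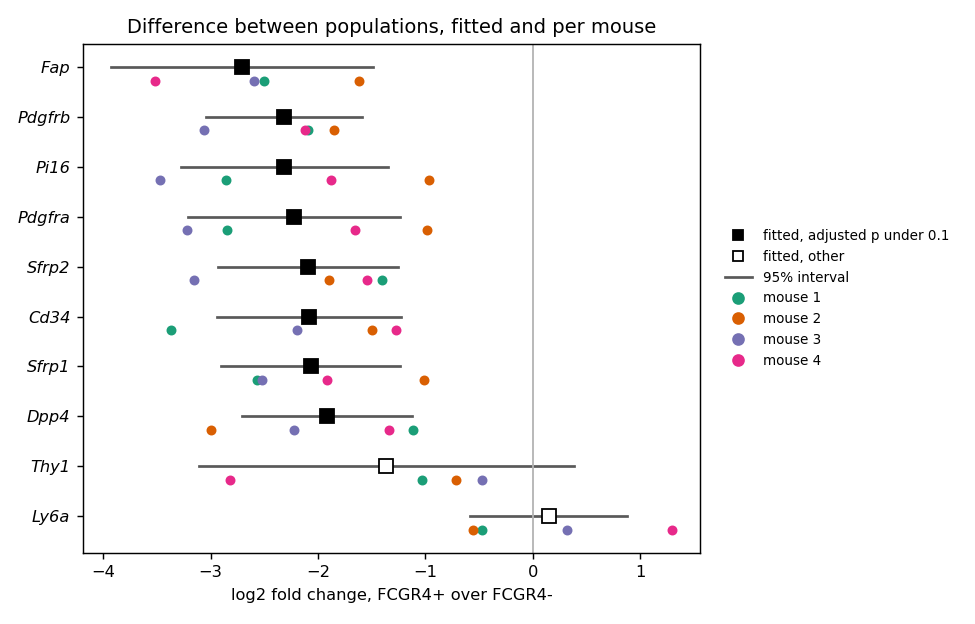
Fitted log2 fold change of FCGR4+ over FCGR4- macrophages (squares, filled where the adjusted P was under 0.1), its 95% interval (bars) and the log2 ratio in each mouse (dots, 1 color per mouse), by gene. The intervals of 8 genes lie below 0 and overlap each other, and those of Thy1 and Ly6a include 0.

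The secreted Wnt modulators Sfrp1 and Sfrp2 were lower in FCGR4+ cells in each mouse, although mice differed widely. Sfrp1 (ENSMUSG00000031548.7, plus strand of chromosome 8, 23411502 to 23449632) had 0.658, 0.666, 1.98 and 1.16 CPM in FCGR4+ and 4.08, 1.38, 11.5 and 4.48 CPM in FCGR4- libraries. Its FCGR4+ value in mouse 3 lay above its FCGR4- value in mouse 2, so the populations overlapped. The log2 fold change of Sfrp1 was -2.07 (95% interval -2.90 to -1.24, adjusted P = 0.0666 by edgeR). Sfrp2 (ENSMUSG00000027996.13, plus strand of chromosome 3, 83766321 to 83774316) had 0.320, 0.354, 2.78 and 1.54 CPM in FCGR4+ and 0.908, 1.41, 25.1 and 4.56 CPM in FCGR4- libraries. Mouse 3 stood above the other mice in both populations, and its FCGR4+ value exceeded the FCGR4- values of mice 1 and 2. Within mice, Sfrp2 was lower in FCGR4+ cells by 1.40 to 3.16 on the log2 scale, and the fitted log2 fold change was -2.09 (95% interval -2.93 to -1.25, adjusted P = 0.0666 by edgeR).

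Mesothelial markers had the same mouse highest among FCGR4- libraries, and another among FCGR4+ libraries. Their summed level was 9.83, 6.12, 61.8 and 11.6 CPM in the FCGR4- libraries of mice 1 to 4, against 3.37, 1.62, 9.50 and 13.5 CPM in the FCGR4+ libraries, and it was lower in FCGR4+ cells in 3 of 4 mice. Msln, mesothelin, was the 1 called lower of 9 tested among 10 (0.919 ± 0.933 CPM in FCGR4+ and 4.95 ± 6.94 CPM in FCGR4- libraries, SD, n = 4, adjusted P = 0.0874 by edgeR), and Bnc1 was at 0 in every FCGR4+ library and at 0.118 to 0.776 CPM in FCGR4- libraries. The 9 had a median log2 fold change of -1.45, with 8 of them negative, 3 lower at an unadjusted P under 0.05 and 1 with DESeq2. The part of mesothelial cells in the level of Sfrp2 was not tested.

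Among 10 further secreted Wnt inhibitors, 3 were tested and 1 was called lower, Sfrp4, another frizzled-related protein, with 1.24 ± 1.56 CPM in FCGR4+ and 8.78 ± 10.2 CPM in FCGR4- libraries (SD, n = 4), a log2 fold change of -2.92 and an adjusted P of 0.00731 by edgeR. Its highest value, 23.9 CPM, was again in the FCGR4- library of mouse 3. With DESeq2 2 of these inhibitors were lower, and 2 at an unadjusted P under 0.05. Dkk3 was lower in 4 of 4 mice without passing (0.177 ± 0.215 and 3.01 ± 1.37 CPM, SD, n = 4, adjusted P = 0.165 by edgeR). Of 19 Wnt ligands, 2 were tested and Wnt11 was called lower (1.41 ± 0.798 and 5.01 ± 1.78 CPM, log2 fold change -1.93, adjusted P = 0.0720). Of 15 Wnt receptors, 12 were tested and 0 were called by edgeR (3 lower at an unadjusted P under 0.05, 1 with DESeq2). Their median log2 fold change was -0.86, with 9 of the 12 negative, and without Lrp6 their summed level was lower in FCGR4+ cells in 4 of 4 mice (14.6 to 26.6 against 24.8 to 31.9 CPM). Their highest members, the coreceptor Lrp6 (22.1 ± 8.32 and 19.6 ± 4.69 CPM) and the frizzled receptor Fzd7 (8.53 ± 3.74 and 7.32 ± 0.972 CPM, SD, n = 4), had values that overlapped between the populations.

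Ly6a and Thy1 were the genes that did not pass. Ly6a (ENSMUSG00000075602.10, minus strand of chromosome 15, 74994877 to 74998031), a GPI-anchored protein, had 53.1, 15.4, 193.7 and 355.1 CPM in FCGR4+ and 73.4, 22.6, 154.9 and 144.2 CPM in FCGR4- libraries. The level depended on the mouse much more than on the population, with mice 3 and 4 above mice 1 and 2 in both. Ly6a was lower in FCGR4+ cells in mice 1 and 2 (log2 ratios -0.47 and -0.55) and higher in mice 3 and 4 (0.32 and 1.30). The fitted log2 fold change was 0.15 (95% interval -0.58 to 0.88, adjusted P = 0.879 by edgeR), an interval that lies above those of Pdgfra, Pdgfrb, Pi16, Dpp4, Cd34, Fap, Sfrp1 and Sfrp2. Mice 1 and 2 carry another animal ID prefix than mice 3 and 4. The labels do not say what the prefix stands for. The share of mitochondrial genes in the counts differed in the same way, being 8.31% and 4.35% in the FCGR4+ libraries of mice 1 and 2, below the 9.88% and 6.43% of their FCGR4- libraries, and 7.87% and 6.67% in those of mice 3 and 4, above the 5.21% and 4.13% of their FCGR4- libraries. Its part in the levels of Ly6a was not tested. The fold change of Ly6a differed between these pairs of mice by 1.32 on the log2 scale (95% interval 0.46 to 2.19, adjusted P = 0.304 by the interaction test of edgeR). In this test 0 of the 17095 genes passed the threshold (0%), with 2355 at an unadjusted P under 0.05, Ly6a the 1 member among them, and DESeq2 was not run for it.

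The family of Ly6a, small GPI-anchored proteins, held 16 other genes, of which 10 were tested and 0 called by edgeR (4 lower and 1 higher at an unadjusted P under 0.05, 3 lower with DESeq2). Ly6e, also interferon-inducible, had the higher FCGR4+ value in each mouse without passing (718.9 ± 383.4 and 573.5 ± 416.2 CPM, SD, n = 4, adjusted P = 0.425 by edgeR). Ly6c2, which encodes a Ly6C protein of monocytes, ranged from 10.4 CPM to 458.1 CPM over the FCGR4+ and from 25.9 to 318.9 CPM over the FCGR4- libraries. The summed level of the family was 433.1, 705.9, 1501 and 1754 CPM in the FCGR4+ libraries of mice 1 to 4 and 295.1, 578.4, 1753 and 1458 CPM in FCGR4- libraries, so the same mice were high in this sum as for Ly6a. Ly6e, Ly6c2, Plaur and Ly6c1 made up 97.2% of it in FCGR4+ and 97.1% in FCGR4- libraries, so it says little of the other genes. Without these 4 it was 14.5 to 43.5 and 14.4 to 41.2 CPM. Of the sequence of Ly6a, 15.0% also occurs in Ly6c1, and since the counting gave a read pair with several matches to every one of them, part of its count may be that of the copy.

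Thy1 (ENSMUSG00000032011.5, plus strand of chromosome 9, 44043384 to 44048579), the CD90 antigen of fibroblasts and T cells, was barely detected. It was counted 11, 14, 32 and 1 times in FCGR4+ and 27, 17, 40 and 25 times in FCGR4- libraries, or 0.252 ± 0.205 and 0.501 ± 0.157 CPM (SD, n = 4). Each mouse had a lower CPM value in FCGR4+ cells, but the populations overlapped, and the value of mouse 4 was under the floor. The log2 fold change was -1.36 (95% interval -3.11 to 0.38, adjusted P = 0.584 by edgeR) and -0.80 without mouse 4. The interval of Thy1 includes both no difference and the fold changes of the 8 called genes.

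**Figure D3:**
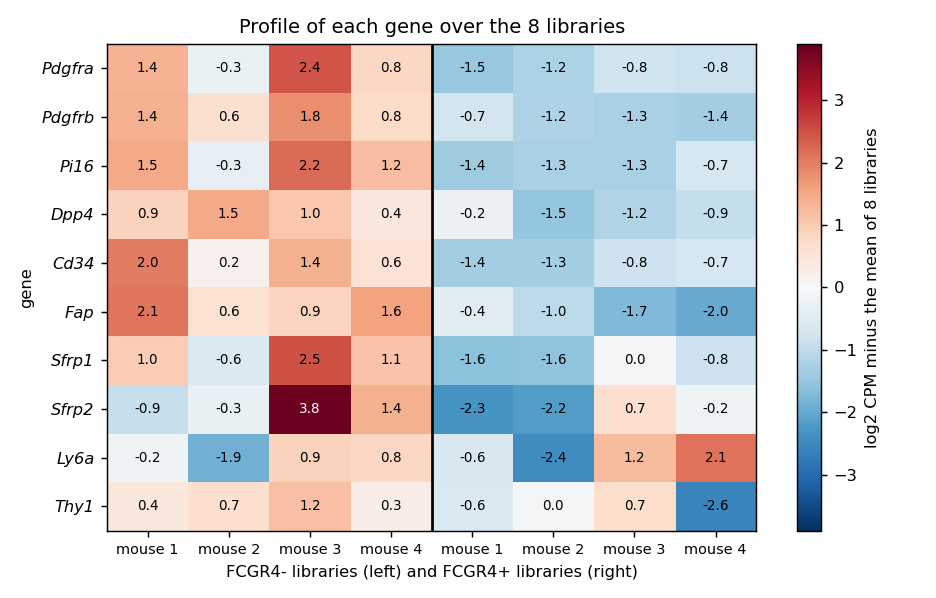
Profile of each gene over the 8 libraries as log2 CPM minus the gene's mean over them, with FCGR4- libraries of mice 1 to 4 on the left and FCGR4+ libraries on the right of the black line. Pdgfra, Pi16 and Sfrp1 share a pattern in which FCGR4- mouse 3 is highest, Dpp4 peaks in FCGR4- mouse 2, Cd34 and Fap in FCGR4- mouse 1, and Ly6a in FCGR4+ mouse 4.

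The profiles of the 10 genes across the libraries were compared by the root-mean-square difference of their centered log2 CPM, a description without a test, since all points share the same 8 libraries. Pdgfra and Pi16 were the closest pair (0.252), followed by Pdgfra and Sfrp1 (0.348). The distance to the mean profile of the 10 was 0.344 for Pdgfra, 0.402 for Sfrp1, 0.423 for Pi16, 0.452 for Cd34 and 0.463 for Pdgfrb. Dpp4 (0.730), Fap (0.903), Thy1 (0.998), Sfrp2 (1.21) and Ly6a (1.51) stood farther out. Among genes outside the group with a mean of at least 1 CPM, those nearest to the mean profile were Lrrc17 (0.196), Fhl2 (0.269), Serping1 (0.287), Mxra8 (0.290), Igfbp7 (0.301), Ccl11 (0.301), Lamb2 (0.308) and Dpep1 (0.315). The nearest gene was Fbln2 for Pdgfra (0.162), Dbn1 for Pdgfrb (0.186), Serpinh1 for Pi16 (0.212), P2ry10 for Dpp4 (0.218), Ogn for Cd34 (0.261), Ssc5d for Fap (0.479), Ccdc80 for Sfrp1 (0.198), Msln for Sfrp2 (0.318), Ifi205 for Ly6a (0.466) and Vsig4 for Thy1 (0.408).

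Most other genes typical of preadipocytes and fibroblasts had a negative log2 fold change, and a minority of them were called. Of 58 such genes, none of them among the 10, 57 were found and 53 tested, and 15 were called lower and 0 higher by edgeR, with 36 lower and 1 higher at an unadjusted P under 0.05 and 35 lower and 0 higher with DESeq2. Their median log2 fold change was -1.57, with 51 of the 53 negative, and 36 were lower in FCGR4+ cells in 4 of 4 mice. Positive were Anxa3 (0.33) and Itgb1 (0.081). Those with the smallest P were Fstl1, a secreted glycoprotein (log2 fold change -1.92, adjusted P = 0.0152 by edgeR), Cd55, a complement inhibitor that marks early progenitors (-1.57, adjusted P = 0.0546), Lum, the collagen-binding proteoglycan lumican (-1.65, adjusted P = 0.0555), and Entpd2, an ectonucleotidase (-2.46, adjusted P = 0.0628). Their count too rested on single mice, with 1 called without mouse 1, 5 without mouse 3 and 4 without mouse 4. The summed level of the list was 2471 to 3820 CPM in FCGR4+ and 3754 to 6602 CPM in FCGR4- libraries, highest in the FCGR4- library of mouse 3 as for Pdgfra and Pi16, and no gene found from the list was at 0 in every library. Fn1, Gsn, Itgb1 and Cd9 (fibronectin, gelsolin, an integrin chain and a tetraspanin), which leukocytes also express, made up 69.3% of this sum in FCGR4+ and 61.0% in FCGR4- libraries, and 0 of these 4 were called. Without them the sum was 838.9 to 988.8 CPM and 1117 to 2947 CPM, lower in FCGR4+ cells in 4 of 4 mice. The cells had been sorted as CD45+, and the part of stromal cells or of their RNA in these levels was not tested.

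Markers of further cell types were also called lower in FCGR4+ libraries, while the summed level of macrophage markers was the larger in the FCGR4+ library of each mouse. Called lower were 3 of 10 tested NK and innate lymphoid markers (12 listed), 2 of 7 B cell markers (9 listed), 4 of 10 dendritic cell markers and 3 of 8 markers of the neutrophils and eosinophils that the gate removes (11 listed). With DESeq2 the numbers lower were 6, 5, 7 and 4 in the same order, and at an unadjusted P under 0.05 they were 7, 5, 8 and 4. Their leading genes were Nkg7, a granule protein (-2.48, adjusted P = 0.0108), Ighm, the IgM heavy chain (-1.82, adjusted P = 0.0666), Cd209a, a lectin of dendritic cells (-2.60, adjusted P = 0.0252), and S100a9, a calcium-binding protein of neutrophils (-2.23, adjusted P = 0.00323 by edgeR). The summed level in FCGR4+ against FCGR4- libraries was 90.0 to 182.9 against 80.7 to 221.4 CPM for NK and innate lymphoid markers, 180.2 to 334.7 against 408.4 to 2324 CPM for B cell markers, 147.0 to 217.9 against 190.2 to 282.3 CPM for dendritic cell markers, and 59.3 to 483.7 against 290.9 to 2020 CPM for neutrophil and eosinophil markers. The first of these sums was mostly Il7r, an interleukin receptor chain (83.6% of it in FCGR4+ and 63.6% in FCGR4- libraries), and without Il7r it was 16.02 to 27.3 against 34.6 to 62.8 CPM, lower in 4 of 4 mice, with a median log2 fold change of -2.18 over the 10 tested markers. Of the B cell sum, Ighm was 93.7% in FCGR4+ and 97.6% in FCGR4- libraries, and without Ighm it was 12.7 to 22.1 against 8.27 to 43.2 CPM, with overlap between the populations and lower in 3 of 4 mice. Likewise Clec10a, a lectin that macrophages share, was most of the dendritic cell sum, which without it was 19.0 to 29.2 against 59.3 to 119.1 CPM. Prg2, a granule protein of eosinophils, was at 0 in every FCGR4+ library and at 0.235 to 0.585 CPM in FCGR4- libraries, while Epx, another, was at 0 in every library but the FCGR4- library of mouse 2 (0.0883 CPM, the floor). Of 16 macrophage markers, 16 were tested and 1 was called lower, Cd163, a hemoglobin scavenger receptor (-0.96, adjusted P = 0.0602), with 7 higher at an unadjusted P under 0.05 and 7 with DESeq2. Of 10 adipocyte markers, 0 were called by edgeR (2 higher at an unadjusted P under 0.05, 1 with DESeq2), and their sum was 2556 to 5586 CPM in FCGR4+ and 1495 to 4587 CPM in FCGR4- libraries, mostly Lpl, lipoprotein lipase, which macrophages also express (3628 ± 1292 and 2501 ± 1384 CPM, SD, n = 4). Lpl took 96.1% and 96.2% of it, and without Lpl the sum was 109.5 to 179.1 CPM in FCGR4+ and 67.8 to 144.1 CPM in FCGR4- libraries, lower in FCGR4+ cells in 1 of 4 mice. The median log2 fold change of the 10 adipocyte markers was -0.37, with 7 of them negative. The part of each of these cell types in the levels of the 10 genes was not tested.

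**Figure D4:**
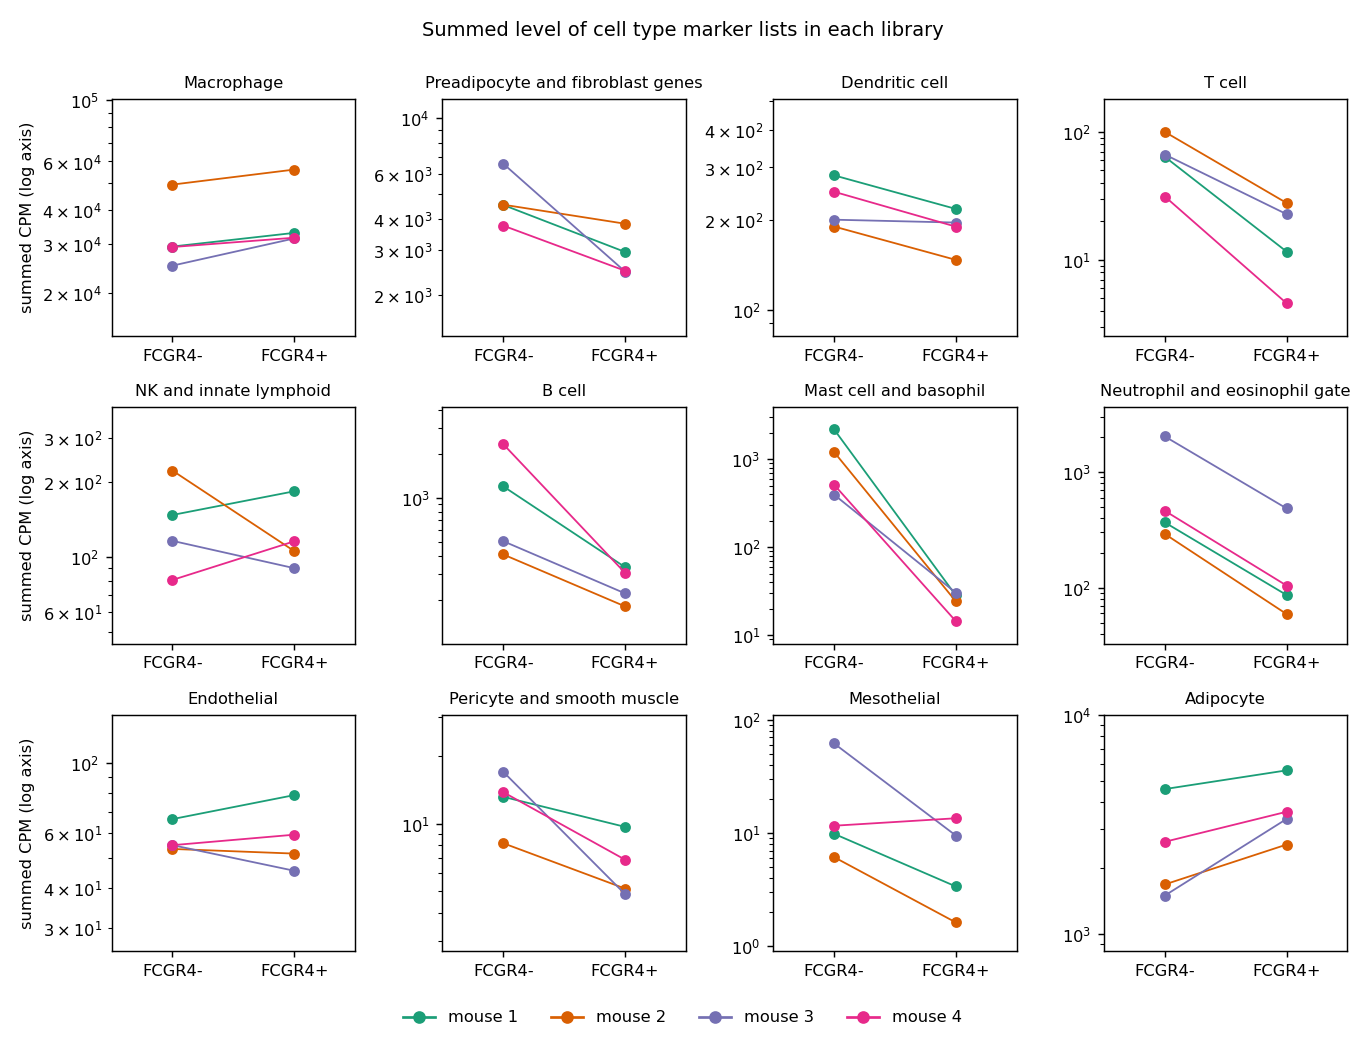
Summed level of the marker genes of 12 cell types in the FCGR4- and the FCGR4+ library of each mouse, in CPM on a log axis that differs between panels, with 1 line per mouse. Mast cell and basophil markers fall the furthest from FCGR4- to FCGR4+ libraries, preadipocyte and fibroblast genes fall in 4 of 4 mice, and macrophage markers climb in 4 of 4, as does the adipocyte sum, of which Lpl is 96.1% in FCGR4+ and 96.2% in FCGR4- libraries.

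Counts of some of the 10 genes may include or lack reads of overlapping genes, since strand was not used. Of the exon bases of Sfrp2, 16.1% lie under Gm26771, and of those of Pdgfra, 6.50% lie under Gm42802, Gm42803 and Mir7025, where read pairs falling on both genes were not counted. Pi16, Dpp4, Cd34, Fap and Sfrp1 shared 0.278% to 3.88% of their sequence with other genes, and Pdgfrb and Thy1 shared 0%.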

How the data were processed

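The authors mapped read pairs to mm10 with STAR and counted them on GENCODE vM18 genes with featureCounts (version 1.6.3 per the file header). The deposited values are these raw counts, with the gene length beside them. Pairs with several matches were counted at all of them, strand was not used, and pairs on 2 genes were left out. Per-sample columns left unused numbered 0.

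Groups and mouse numbers came from the labels. Tested were the 17095 genes that reached 10 counts in 4 or more of the 8 libraries, which took 99.8% or more of the counts. They were scaled by TMM (factors 0.937 to 1.11) and tested with edgeR 4.0.16 (R 4.3.3, quasi-likelihood, mouse plus population, the paired model of the study's methods, adjusted P under 0.1). Standard errors were the log2 fold change over the root of F, and log2 CPM used a prior count of 2. Levels per length (FPKM) used the deposited lengths. Libraries of 1 mouse deviated together (correlation of deviations from the population means 0.291 to 0.428). No libraries were duplicates (chi-square per degree of freedom at least 83.6). Intervals at the 95% level, floors and P values rest on 4 mice, and floors cover counting error alone. The fits were tested on simulated data.

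Members and lists were chosen with earlier results of these data known. Named from each list were called genes, at most 4 by P, or else the 2 most abundant. Likeness names were the 8 nearest genes to the mean profile and the nearest to each member. Ensembl identifiers were matched to symbols for 54079 of 54146 genes, with Nov unmatched. Shared sequence was measured in 50-base words on a later GENCODE release of mm10. Alternatives were no block, DESeq2 1.42.0, the newer quasi-likelihood method, other scalings and filters, a threshold of 0.05, and leaving out mice.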

Additional observations from a re-analysis of the deposited data

Results flagged for a closer look

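Among 72 groups of 4 values on the log2 scale (the 10 genes and the summed lists in each population, and the log2 ratios of the 10 genes), 5 had a mouse whose gap to the nearest other, as a share of the range, exceeded the 95% critical value, where chance gives about 3.6. Pi16 in FCGR4+ libraries had such a gap (0.843), with 7.87 CPM in mouse 4 and 4.84 to 5.22 CPM in the others. The summed PDGF receptor signaling genes had it in FCGR4- libraries (0.974), with 732.6 CPM in mouse 1 and 545.8 to 550.0 CPM in the others. Rasa1 alone had 343.4 CPM in mouse 1 and 78.0 to 104.2 CPM in the others. Without Rasa1 these sums were 389.2 to 470.4 CPM. The summed secreted Wnt inhibitors outside the 10 genes had such a gap in FCGR4- libraries (0.888), with 30.1 CPM in mouse 3 and 6.09 to 7.28 CPM in the others. Of this sum in mouse 3, Sfrp4 was 23.9 CPM. Macrophage markers had such a gap in FCGR4+ libraries (0.919, mouse 2 at 56072 CPM), and endothelial markers in FCGR4- libraries (0.873, mouse 1 at 66.3 CPM). Of the macrophage markers, Lyz2 alone had 39810 CPM in mouse 2 and 16762 to 18004 CPM in the other FCGR4+ libraries. Without Lyz2 the macrophage sums of FCGR4+ libraries were 13725 to 16262 CPM. Ly6a had opposite signs in mice 1 and 2 and in mice 3 and 4, with mean log2 ratios of -0.51 and 0.81, a difference of 1.32 (adjusted P = 0.304 by edgeR's test of the interaction).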

How the results depend on the processing

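Of the 10 genes, 8 passed the threshold, and 8 did so with DESeq2, with the newer quasi-likelihood method, with RLE size factors, with library size alone and with no filter. With at least 10 counts in every library 7 of the 8 tested passed. With no replicate block 2 did, with mice 1 and 2 alone or mice 3 and 4 alone 0, with a threshold of 0.05 only Pdgfrb (1), and with a mouse left out 0 to 4. The 15 called preadipocyte and fibroblast genes became 4 with no replicate block, 35 with DESeq2, 30 with the newer method, 34 with no filter, 23 with 10 counts in every library, 4 with mice 1 and 2 alone, 4 with mice 3 and 4 alone, 1 at 0.05, and 1 to 12 with a mouse left out. The 217 genes called among all tested became 48, 1024, 629, 1054, 256, 113, 113 and 76 in the same order, and 84 to 163 with a mouse left out. The cause of these shifts was not tested.

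Of the 217, 14 were higher and 203 lower in FCGR4+ cells, and of the 1024 with DESeq2, 192 were higher and 832 lower. The median of all genes was -0.0919 with library size alone and -0.159 with no filter. The log2 fold changes of the 8 called genes kept their sign under every alternative run. That of Ly6a (0.15) was -0.51 with mice 1 and 2 alone, 0.79 with mice 3 and 4 alone, 0.64 with no replicate block and -0.23 to 0.38 with a mouse left out. Other named genes that changed sign were uncalled. With mice 3 and 4 alone the values were -0.016 for Nrp1, -0.24 for Lrp6, -0.38 for Fzd7, 0.24 for Ly6c2, -0.047 for Eng, 0.30 for Vwf, 0.88 for Cspg4 and 0.098 for Ifi205. With mice 1 and 2 alone they were 0.20 for Stat3 and -2.39 for Podxl2. With no replicate block they were 0.20 for Ly6c2 and -0.20 for Podxl2, which was -0.22 with the newer method. With a mouse left out they were -0.27 to 0.014 for Stat3, -0.079 to 0.24 for Lrp6, -0.069 to 0.48 for Fzd7, -1.02 to 1.43 for Podxl2, -0.57 to 0.14 for Vwf and -0.71 to 0.26 for Cspg4. Of the 76 genes named, 31 lost their call without mouse 1, 24 without mouse 2, 17 without mouse 3, 25 without mouse 4 and 37 with no replicate block. Of the 10 genes, Thy1 alone had a value under the floor of 3 counts, in 1 of 8 libraries.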
